A study of Arabidopsis thaliana with 4 samples.

Results

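The plastid genome of Arabidopsis thaliana encodes part of the photosynthetic apparatus and part of the plastid's own gene expression machinery. A probe set was taken as plastid-encoded when the platform annotation named exactly 1 gene for it and that gene lay on the plastid genome in RefSeq (assembly TAIR10.1). This rule found 69 probe sets for 69 genes among the 22810 probe sets of the Affymetrix ATH1 array. RNA came from whole seedlings grown for 4 days in darkness after a light pulse to start germination, and the signal of each probe set was measured on 4 arrays. The mutant group, ein3 eil1 (2 arrays), carries the alleles ein3-1 and eil1-1, lesions in 2 related transcription factors that act at the end of the ethylene signalling pathway, and the plants it is compared with were wild type, Col-0 (2 arrays). The labels name no ethylene treatment, and they record a higher protochlorophyllide content in the dark-grown mutant than in wild type. The design asks which transcripts depend on these transcription factors in darkness, and here the question is put to the genes that the plastid itself carries.

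Plastids transcribe their genome with a bacterial-type RNA polymerase, whose core subunits are plastid-encoded, and with phage-type polymerases made from nuclear genes. Photosystem genes rely mostly on the bacterial-type enzyme, while the rpoB cluster, with most of its own core subunit genes, is read by the phage-type one. In darkness the seedling holds etioplasts, which assemble complete photosystems once light arrives. Most plastid genes are read out in clusters as long joint RNAs that are then cut, spliced and edited, so one RNA can carry several of the genes below. Plastid mRNAs carry poly(A) tails mainly on their way to degradation, and the manufacturer's standard protocol, which the labels name, starts from such tails. A signal is therefore that of the labelled RNA and not of all RNA of a gene.

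In each genotype 1 array is titled as a biological replicate and the other is not. The arrays so titled are called replicate 2 and form pair 2, and the other arrays are called replicate 1 and form pair 1. Nothing in the labels says whether these came from separate growths, so p values here reflect the spread among the arrays, which may be partly technical. The median deposited intensities were 50.8 and 85.2 in ein3 eil1 and 49.5 and 52.3 in wild type, so ein3 eil1 replicate 2 stood apart. All log2 signals below were computed after adding 3 and quantile normalised. Values are given for replicate 1 and then replicate 2 of a genotype, and differences are ein3 eil1 minus wild type on the log2 scale. EIN3 itself, the check of the mutant label, had log2 signals of 6.51 and 7.22 in ein3 eil1, against 9.73 and 10.24 in wild type (difference -3.12, SE 0.35, limma adjusted p = 0.014). Of the markers listed to check the tissue, 4 could be read. The root gene PYK10 had 13.22 ± 0.18 in ein3 eil1 and 13.23 ± 0.15 in wild type (SD, n = 2 each). PORB, which encodes a light-dependent protochlorophyllide oxidoreductase of etioplasts, had 11.52 ± 0.38 in ein3 eil1 and 12.65 ± 0.62 in wild type (SD, n = 2 each, difference -1.13, limma adjusted p = 0.42). Its enzyme acts on the protochlorophyllide that the labels record as higher in the mutant, so PORB is no independent check of tissue. ICL, for isocitrate lyase of seed oil use, differed by -0.02, and the stomatal lineage gene SPCH, which was dim, by -0.24. In whole seedlings, fewer plastid-rich cells, fewer plastids per cell and less RNA per plastid cannot be told apart.

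No plastid-encoded gene passed the test of the genotype difference. Of the 69 genes, 67 had a signal at or over the 40th percentile of its array on 2 or more arrays and were tested, and ndhF and rps14 did not. With limma fitted across all 14031 tested probe sets, 0 of the 67 had an adjusted p under 0.05, where 0.292% of all tested probe sets did (0.0784% higher and 0.214% lower in ein3 eil1), and 0 had an unadjusted p under 0.05, where 6.14% did. The lowest adjusted p among the 67 was 0.89. With the array pair as a block, 0 of the 67 passed (2.79% of all tested probe sets did), and 7 had an unadjusted p under 0.05 (13.3% of all tested). All 7 were lower in ein3 eil1 (rbcL, psbM, clpP, atpE, rpl22, atpB and rpl33).

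The differences were small as well as uncalled. The 67 differences ran from -0.78 to 0.42 with a median of -0.01, against a median of 0.01 over all tested probe sets. The mean was lower in ein3 eil1 in 41 of the 67 (61.2%), against 48.9% of all tested probe sets. The absolute difference was under 0.5 in 65 of the 67 (97.0%), compared with 81.3% of all tested probe sets. It reached 1 log2 unit, which is 2-fold, in 0 of the 67 and in 4.17% of all tested. The plastid genes were bright, with median intensities of 1430 and 3330 in ein3 eil1 and 1580 and 2280 in wild type. The medians of whole arrays were 49.5 to 85.2. Shares of all tested probe sets, here and elsewhere, thus come mostly from dimmer ones, and no set of like signal was compared. The precision differed widely between genes, with standard errors between 0.18 and 1.38 (median 0.31). For 42 genes the 95% interval of the difference lay within 1 log2 unit on either side of 0, so it left out a 2-fold change, and for 25 genes it did not. These intervals come from the fit without the array pair, so differences between the pairs count as spread in them.

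The genotypes seldom separated on the arrays. Both mutant values lay above both wild-type values in 2 of the 67 genes (ndhH and rps15) and below them in 6 (psbM, psbN, psbZ, atpB, atpE and rpl33). Over all tested probe sets the corresponding shares were 16.5% and 15.1%, together 31.6%. The genotype difference had the same sign in both pairs in 31 of the 67 genes (46.3%), compared with 56.9% of all tested probe sets. Without normalisation, at the deposited scale, the median difference was 0.34 for the 67 and 0.40 for all tested probe sets. At that scale 16 of the 67 lay higher without overlap (33.3% of all) and 0 lower (2.58% of all), so the 6 separations downward end there.

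**Figure D1:**
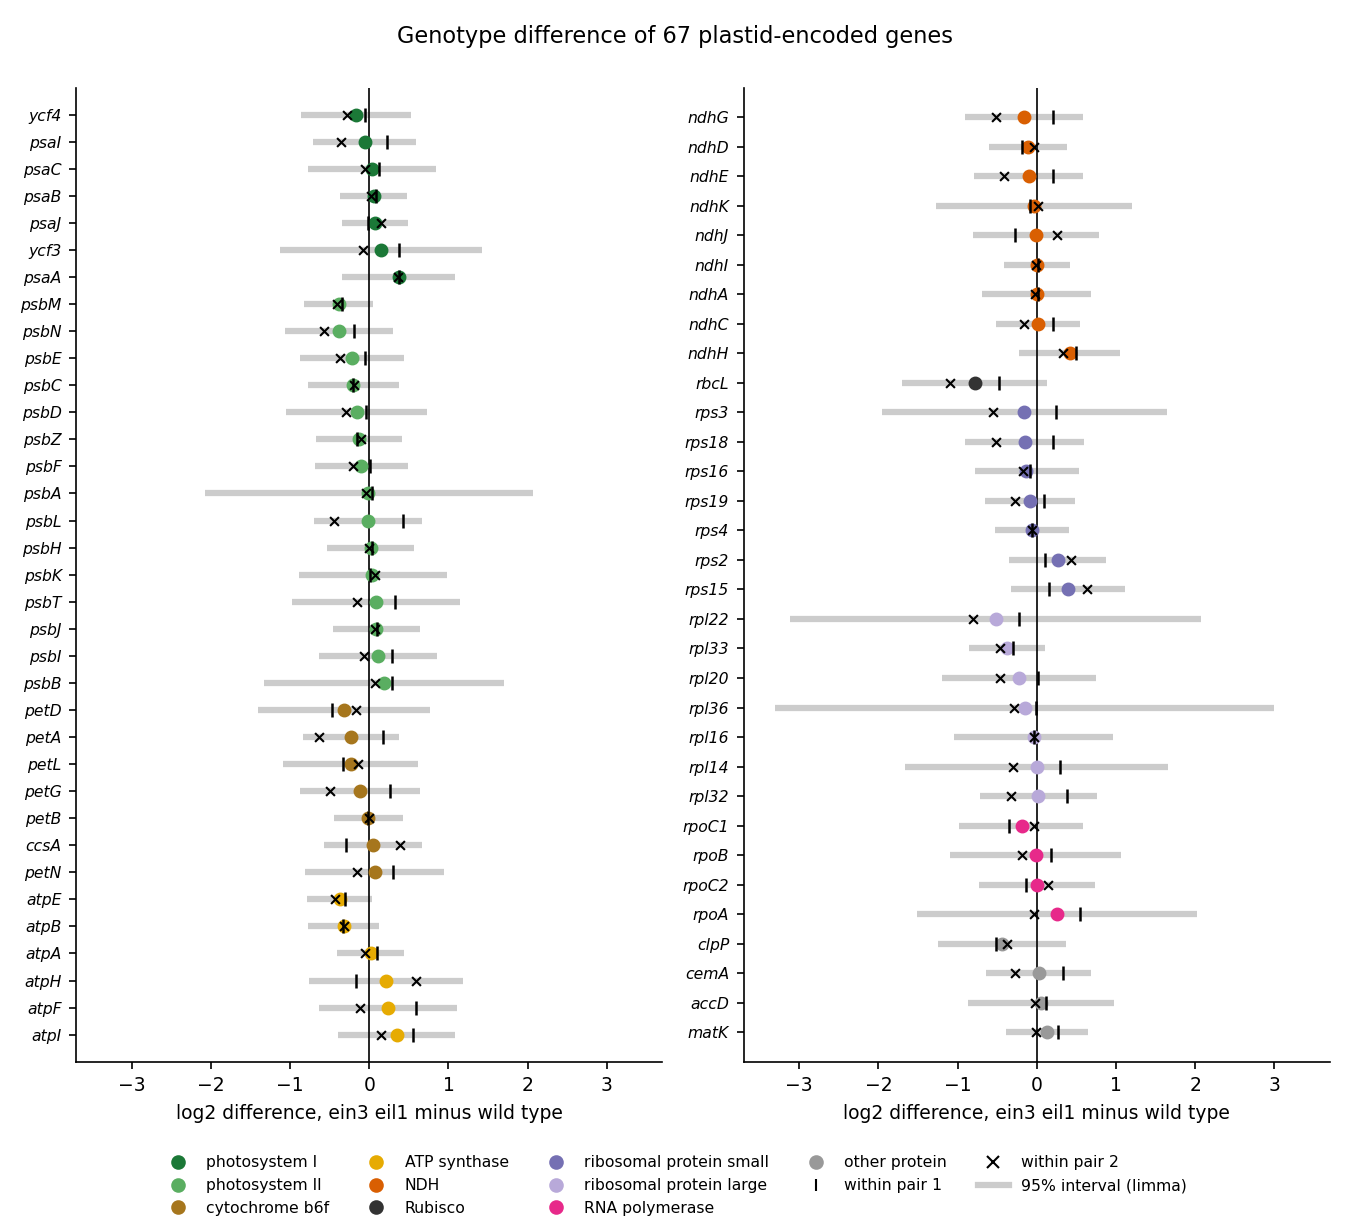
Log2 difference, ein3 eil1 minus wild type, of the 67 tested plastid-encoded genes, grouped by functional class. Coloured points are means of 2 arrays per genotype minus each other, grey bars are 95% intervals from limma, and the bar and cross marks are the differences within pair 1 and pair 2; every interval spans 0, and the widest belong to rpl36, rpl22 and psbA.

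Photosystem I genes differed little between the genotypes. All 7 of its genes were tested, 5 with a higher and 2 with a lower mean in ein3 eil1, with a median difference of 0.06. The reaction-centre gene psaA had signals of 12.38 and 11.72 in ein3 eil1 and 12.01 and 11.35 in wild type, a difference of 0.37 (SE 0.31), with 0.37 within pair 1 and 0.36 within pair 2. The mutant array was the higher one in each pair, but the groups overlapped, because both replicate 1 arrays lay above both replicate 2 arrays.

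The partner of psaA in the reaction centre, psaB, had signals of 13.09 and 12.96 in ein3 eil1 and 13.00 and 12.94 in wild type (difference 0.06, 95% interval -0.37 to 0.48). For psaJ, which encodes a small subunit, the signals were 13.17 and 13.15 in ein3 eil1 and 13.19 and 13.00 in wild type. The 4 arrays lay close together in both genes. The terminal iron-sulphur subunit gene psaC differed by 0.03 and the small-subunit gene psaI by -0.06. The genes ycf3 and ycf4, assembly factor genes of the complex, differed by 0.15 and -0.17, and the sign of ycf3 was opposite in the pairs (0.38 in pair 1 and -0.08 in pair 2).

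Photosystem II genes, 15 in number and all tested, had a median difference of -0.01, with 6 higher and 9 lower means in ein3 eil1. The gene psbA encodes the reaction-centre protein that is replaced fastest in the light. Its signals were 9.09 and 11.55 in ein3 eil1 and 9.06 and 11.60 in wild type, a difference of -0.01 with a 95% interval from -2.08 to 2.07. Replicate 2 was far above replicate 1 in both genotypes, and within each pair the genotypes were almost equal (0.03 and -0.04). Leaving out 1 array in turn moved the difference of psbA between -1.28 and 1.25, so its value rests on having 1 array of each genotype in each pair.

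The antenna gene psbB behaved the same way, with 10.19 and 11.85 in ein3 eil1 and 9.90 and 11.78 in wild type (difference 0.18, SE 0.66). The gene psbM, which encodes a small subunit at the dimer interface, had 13.63 and 13.32 in ein3 eil1 and 13.98 and 13.73 in wild type. Both mutant values lay below both wild-type values, with -0.35 in pair 1 and -0.41 in pair 2 (difference -0.38, SE 0.19, 95% interval -0.82 to 0.05). The gene psbN, an assembly factor gene on the strand opposite to its neighbours psbT and psbH, also separated, with 7.22 and 7.33 in ein3 eil1 and 7.41 and 7.90 in wild type.

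The gene psbZ, for a small subunit, separated by less, with 11.22 and 11.12 in ein3 eil1 and 11.37 and 11.23 in wild type. The reaction-centre gene psbD and the antenna gene psbC, whose coding regions overlap, differed by -0.16 and -0.20. The cytochrome b559 genes psbE and psbF differed by -0.22 and -0.10. In psbC the difference was nearly the same in both pairs (-0.20 and -0.19), whereas in psbL, of the same cluster as psbE and psbF, it changed sign between the pairs (0.42 and -0.45). The remaining small-subunit genes psbH, psbI, psbJ, psbK and psbT differed by 0.02 to 0.11.

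The cytochrome b6f complex passes electrons between the photosystems. Its 6 genes and ccsA, which serves the attachment of haem to c-type cytochromes, were all tested, 2 with a higher and 5 with a lower mean in ein3 eil1, and their median difference was -0.12. The gene petB, for cytochrome b6, had 13.71 and 13.45 in ein3 eil1 and 13.73 and 13.45 in wild type (difference -0.01, 95% interval -0.45 to 0.42). Each mutant array matched the wild-type array of its pair within 0.02. The gene petD, for subunit IV, was much less tightly measured, at 5.23 and 6.37 in ein3 eil1 and 5.70 and 6.54 in wild type (difference -0.32, SE 0.47). The gene petA, for cytochrome f, differed by 0.17 in pair 1 and -0.64 in pair 2. The small-subunit genes petG, petL and petN differed by -0.12, -0.23 and 0.07, and ccsA by 0.05.

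ATP synthase genes had no common direction. Of its 6 plastid-encoded subunits 4 had a higher and 2 a lower mean in ein3 eil1, and the median difference was 0.11. Those with a lower mean are neighbours whose coding regions overlap, atpB (the catalytic beta subunit) and atpE (the epsilon subunit). The gene atpB had 13.35 and 13.66 in ein3 eil1, against 13.68 and 13.98 in wild type, a difference of -0.32 (SE 0.19) with -0.33 in pair 1 and -0.32 in pair 2. The gene atpE had 13.05 and 13.11 in ein3 eil1 and 13.36 and 13.54 in wild type (difference -0.37, SE 0.18, 95% interval -0.78 to 0.04). In atpE all mutant values lay below all wild-type values, and in atpB the higher mutant value lay just under the lower wild-type value.

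At the deposited scale atpB differed by -0.06 and atpE by -0.07, against the median of 0.40 over all tested probe sets. The other 4 ATP synthase genes lie in a second cluster that starts with rps2, and all 4 had positive differences. The gene atpI, for subunit a, had 7.45 and 7.70 in ein3 eil1 and 6.90 and 7.56 in wild type (difference 0.35, SE 0.32). The difference of atpF (subunit b) was 0.24, of atpH (the ring subunit c) 0.21 and of atpA (the alpha subunit) 0.02. The groups overlapped in these 4 genes, and in atpA, atpF and atpH the sign was opposite in the pairs (0.59 and -0.12 for atpF, -0.17 and 0.59 for atpH).

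The NDH complex, which feeds electrons back into the photosynthetic chain, has 10 member genes here. Of these, 9 were tested, 2 with a higher and 7 with a lower mean in ein3 eil1 and a median difference of -0.01. The gene ndhH separated the genotypes upward, with 9.06 and 8.91 in ein3 eil1 and 8.55 and 8.58 in wild type. Its difference was 0.42 (SE 0.28, 95% interval -0.22 to 1.05), or 0.50 in pair 1 and 0.33 in pair 2. The next genes of its cluster, ndhA and ndhI, did not share this: ndhA had 12.44 and 11.81 in ein3 eil1 and 12.43 and 11.82 in wild type, and ndhI had 13.56 and 13.34 in ein3 eil1 and 13.55 and 13.35 in wild type. In both genes the mutant and wild-type arrays of a pair differed by at most 0.02. On its other side ndhH adjoins rps15, for a ribosomal protein, the other of the 67 genes that separated upward.

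The gene ndhG had the lowest difference of the complex, -0.16, with 9.03 and 9.03 in ein3 eil1 and 8.84 and 9.55 in wild type, and its sign differed between the pairs (0.20 and -0.51). The gene ndhE, which differed by -0.10, had the same order of signs (0.21 and -0.42). The difference of ndhD was -0.11, of ndhK -0.04, of ndhJ -0.01 and of ndhC 0.02. The untested ndhF had a deposited intensity of at most 18.1 on any array, too dim to compare.

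The gene rbcL, the large subunit of Rubisco, had the most negative difference of the 67 genes. Its signals were 9.14 and 9.63 in ein3 eil1 and 9.61 and 10.72 in wild type, which is 9.39 ± 0.35 in ein3 eil1 and 10.17 ± 0.78 in wild type (SD, n = 2 each). The difference of -0.78 (SE 0.40, 95% interval -1.70 to 0.13) did not pass limma (adjusted p = 0.91). The mutant was lower in both pairs (-0.48 and -1.09), yet the groups overlapped, since ein3 eil1 replicate 2 lay just above wild type replicate 1. Without 1 array in turn the difference ran from -1.35 to -0.22. With the array pair as a block the limma adjusted p of rbcL was 0.12, and it ran from 0.12 to 1.0 over 15 alternative settings.

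**Figure D2:**
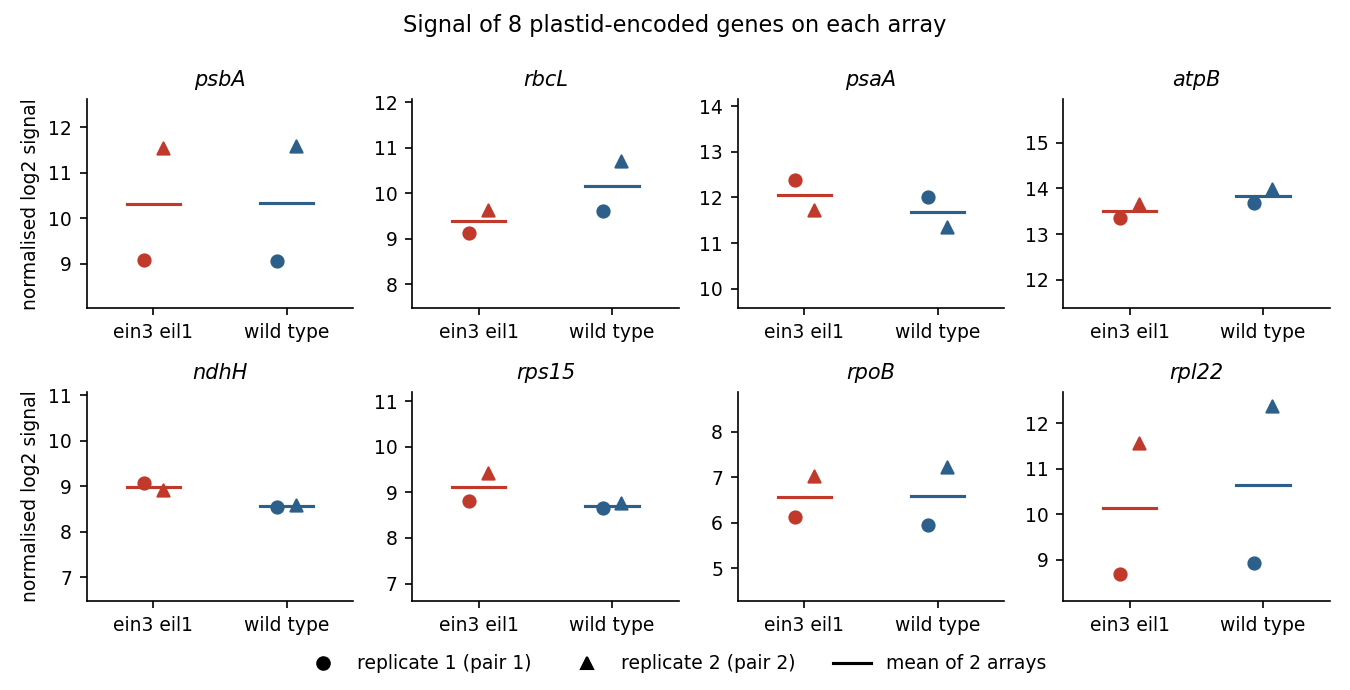
Normalised log2 signal of 8 plastid-encoded genes on each array, with ein3 eil1 left of wild type; circles are replicate 1, triangles replicate 2 and lines the mean of 2 arrays, and every panel spans the same number of log2 units. In psbA, rpoB and rpl22 the triangles of both genotypes lie far above the circles, while ndhH and rps15 are those of the 8 in which both mutant points lie above both wild-type points.

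Genes for ribosomal proteins make up 15 of the 69, and 14 were tested, 3 with a higher and 11 with a lower mean in ein3 eil1 and a median difference of -0.11. The medians were 0.06 within pair 1 and -0.29 within pair 2. Among the small-subunit genes rps15 separated upward, with 8.81 and 9.42 in ein3 eil1 and 8.65 and 8.77 in wild type (difference 0.40, SE 0.31). The gene rps4 was nearly equal, with 12.43 and 12.65 in ein3 eil1 and 12.49 and 12.71 in wild type (difference -0.06, 95% interval -0.53 to 0.41). The gene rps3 had 9.96 and 11.68 in ein3 eil1 and 9.72 and 12.23 in wild type, a difference of -0.16 whose 95% interval ran from -1.95 to 1.64. Replicate 2 lay well above replicate 1 in both genotypes in rps3, a gap that rps4 did not show.

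The other tested small-subunit genes, rps2, rps16, rps18 and rps19, differed by 0.27, -0.13, -0.15 and -0.09. The untested rps14 had intensities of 30.9 and 43.0 in ein3 eil1 and 20.1 and 7.0 in wild type. In the large subunit rpl33 separated downward, with 12.25 and 12.38 in ein3 eil1 and 12.54 and 12.84 in wild type (difference -0.38, SE 0.21, 95% interval -0.86 to 0.10). At the deposited scale the difference of rpl33 was 0.00. The gene rpl32 had 12.34 and 11.38 in ein3 eil1 and 11.96 and 11.71 in wild type (difference 0.02). Its sign changed between pair 1 (0.38) and pair 2 (-0.33).

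The gene rpl22 had the most negative difference of the large subunit and the lowest precision after rpl36. Its signals were 8.69 and 11.57 in ein3 eil1 and 8.92 and 12.38 in wild type, a difference of -0.52 (SE 1.13). The gene rpl36 had 7.43 and 11.17 in ein3 eil1 and 7.44 and 11.46 in wild type, a difference of -0.15 (SE 1.38). The replicates of a genotype lay further apart than the genotypes did in both. Neither passed in the fit of 4 arrays. Leaving out a mutant array sets the array of 1 pair against wild-type arrays of both pairs. The difference then also holds the contrast between the pairs and is no test of genotype alone. Without ein3 eil1 replicate 2 the SE was 0.43 for rpl22 and 0.46 for rpl36, although their wild-type SDs were 2.44 and 2.84. Limma then took the variance mostly from the other probe sets, so p values of such fits do not reflect the gap between the wild-type arrays. Without ein3 eil1 replicate 2 both passed limma (rpl22 -1.97, adjusted p = 0.0012, and rpl36 -2.03, adjusted p = 0.0022), 2 of the 67 genes where 1.34% of all tested probe sets passed. Without ein3 eil1 replicate 1, rpl36 passed in the other direction (1.72, limma adjusted p = 0.011), 1 of the 67 where 0.956% of all passed. Without a wild-type array 0 of the 67 passed (1.31% of all passed without replicate 1 and 0.5% without replicate 2). Over all 15 alternatives the adjusted p ran from 0.0012 to 1.0 for rpl22 and from 0.0022 to 1.0 for rpl36. Of the other genes of the subunit, rpl14, rpl16 and rpl20 differed by 0.00, -0.04 and -0.22.

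The 4 core subunit genes of the bacterial-type RNA polymerase had a median difference of -0.01. The gene rpoB, for the beta subunit, had 6.13 and 7.03 in ein3 eil1 and 5.95 and 7.22 in wild type (difference -0.01, 95% interval -1.09 to 1.07). The gene rpoC1, which follows rpoB in the same cluster, had 10.03 and 10.85 in ein3 eil1 and 10.38 and 10.88 in wild type (difference -0.19, SE 0.34), and rpoC2 differed by 0.00. The gene rpoA, for the alpha subunit, lies in the ribosomal protein cluster and had deposited intensities of 918.4 and 5252.8 in ein3 eil1 and 642.4 and 3090.8 in wild type (log2 difference 0.26 after normalisation, 95% interval -1.51 to 2.02). Replicate 2 lay above replicate 1 in both genotypes in all 4 genes.

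Of the other proteins, accD encodes a subunit of the acetyl-CoA carboxylase that starts fatty acid synthesis, and it had 9.51 and 10.32 in ein3 eil1 and 9.39 and 10.33 in wild type (difference 0.05). The gene clpP, for the proteolytic subunit of the Clp protease, had 11.63 and 12.53 in ein3 eil1 and 12.14 and 12.91 in wild type. Its difference of -0.44 (SE 0.35, 95% interval -1.25 to 0.37) was negative in pair 1 (-0.51) and pair 2 (-0.38), and the groups overlapped. The gene matK, for the plastid's own intron maturase, had 12.70 and 12.27 in ein3 eil1 and 12.42 and 12.29 in wild type (difference 0.13). The envelope protein gene cemA differed by 0.03.

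The genes can also be grouped by the polymerase that reads them, a grouping known mostly from tobacco. The 12 genes with promoters for the bacterial-type enzyme, among them psaA, psbA and rbcL, had a median difference of -0.05. The 4 tested genes with promoters for both enzymes (clpP, atpB, atpI and rps16) had a median of -0.22, and the 4 genes read by the phage-type enzyme (rpoB, rpoC1, rpoC2 and accD) one of -0.01. None of the 20 tested genes in these groups passed limma.

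**Figure D3:**
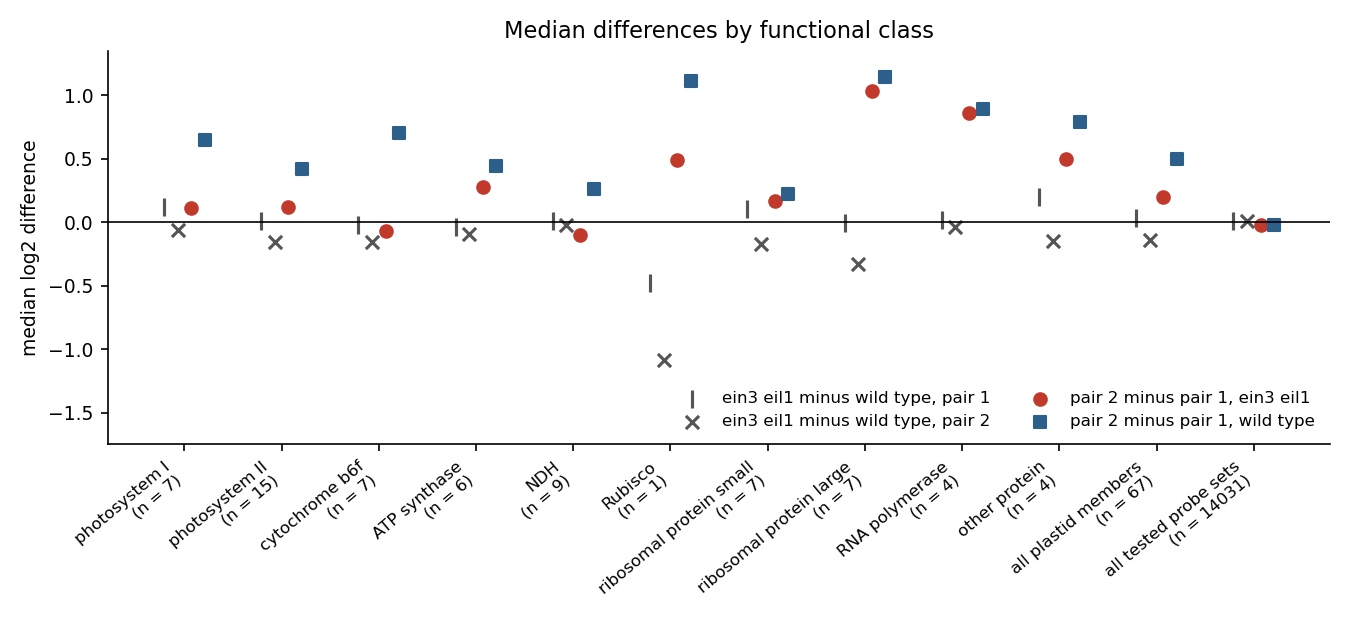
Median log2 differences by functional class, with the number of tested genes in brackets. Grey marks are ein3 eil1 minus wild type within each pair, and coloured marks are pair 2 minus pair 1 within each genotype; the grey marks lie within 0.33 of 0 in every class except Rubisco, which is 1 gene, while the coloured marks reach 1.03 in ein3 eil1 and 1.14 in wild type for proteins of the large ribosomal subunit.

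The plastid genes varied more between the array pairs than between the genotypes. The median absolute difference between replicate 2 and replicate 1 was 0.43 in ein3 eil1 and 0.62 in wild type, against 0.33 and 0.37 over all tested probe sets. The median absolute genotype difference was 0.20 in pair 1 and 0.19 in pair 2, against 0.26 and 0.31 over all tested probe sets. Pair 2 was above pair 1 in both genotypes in 42 of the 67 genes (62.7%, against 30.9% of all tested probe sets) and below it in both in 19 (28.4%, against 34.3% of all). This contrast was described and not tested, and the genes singled out for it were chosen after their values were seen.

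In 10 of the 67 genes pair 2 was at least 2-fold above pair 1 in both genotypes, where 1.2% of all tested probe sets met this rule. These were psbA, psbB, ycf3, ndhK and 6 genes of 1 cluster, rpoA, rpl36, rpl14, rpl16, rps3 and rpl22. With other scalings the count ran from 9 with median centring (0.984% of all) to 13 at the deposited scale (2.87% of all). In the opposite direction psbK alone was lower by 2-fold or more in pair 2 in both genotypes (0.584% of all), and 0 genes were at the deposited scale (0.0927% of all). The gene psbK, for a small photosystem II subunit, had 12.98 and 11.98 in ein3 eil1 and 12.97 and 11.91 in wild type.

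The cluster from rpl23 to rpoA, in which ribosomal protein genes are transcribed together with the alpha subunit of the polymerase, carried the steepest contrast. In deposited intensities rpl36 had 3330.0 on replicate 2 and 148.4 on replicate 1 in ein3 eil1, and 2377.2 on replicate 2 and 151.6 on replicate 1 in wild type. For rpl22 the same intensities were 4402.3 and 369.9 in ein3 eil1, and 4429.8 and 437.2 in wild type. In both genes the arrays of a pair lay far closer to each other than the pairs did. After normalisation the fold of pair 2 over pair 1 was 13.4 in ein3 eil1 and 16.2 in wild type for rpl36, and 7.37 and 11.0 for rpl22.

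Along the cluster the contrast was uneven. In ein3 eil1 it was 1.72 for rps3, 1.03 for rpl16, 1.62 for rpl14 and 1.80 for rpoA on the log2 scale, and in wild type 2.51, 1.03, 2.21 and 2.38 for the same genes. The gene rps19, just upstream of rpl22, had 0.09 in ein3 eil1 and 0.45 in wild type, so the high values stopped at that boundary among the genes measured. The genes rpl2 and rpl23, further upstream, are present in 2 copies on the genome and are not members, but their contrasts were also low (-0.03 and 0.32 in ein3 eil1, 0.00 and 0.08 in wild type).

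The psbB and psaA clusters were uneven too. In the psbB cluster, psbB (1.66 in ein3 eil1 and 1.88 in wild type), psbT (0.84 and 1.32) and petD (1.15 and 0.85) were higher in pair 2. The genes psbH (-0.38 and -0.35) and petB (-0.26 and -0.28), which lie between psbT and petD, were slightly lower. In the psaA cluster the contrast was -0.66 in ein3 eil1 and -0.66 in wild type for psaA, and -0.13 and -0.06 for psaB. Other clusters varied in this. The 4 genes of the psaI cluster ran from -0.10 to 0.43 in ein3 eil1 and from 0.65 to 0.80 in wild type. The cluster of atpI and rps2 was spread more widely, from -0.11 to 1.33 in ein3 eil1 and from -0.45 to 1.17 in wild type. The ndhC cluster ran from -0.10 to 1.39 in ein3 eil1 and from 0.26 to 1.29 in wild type.

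**Figure D4:**
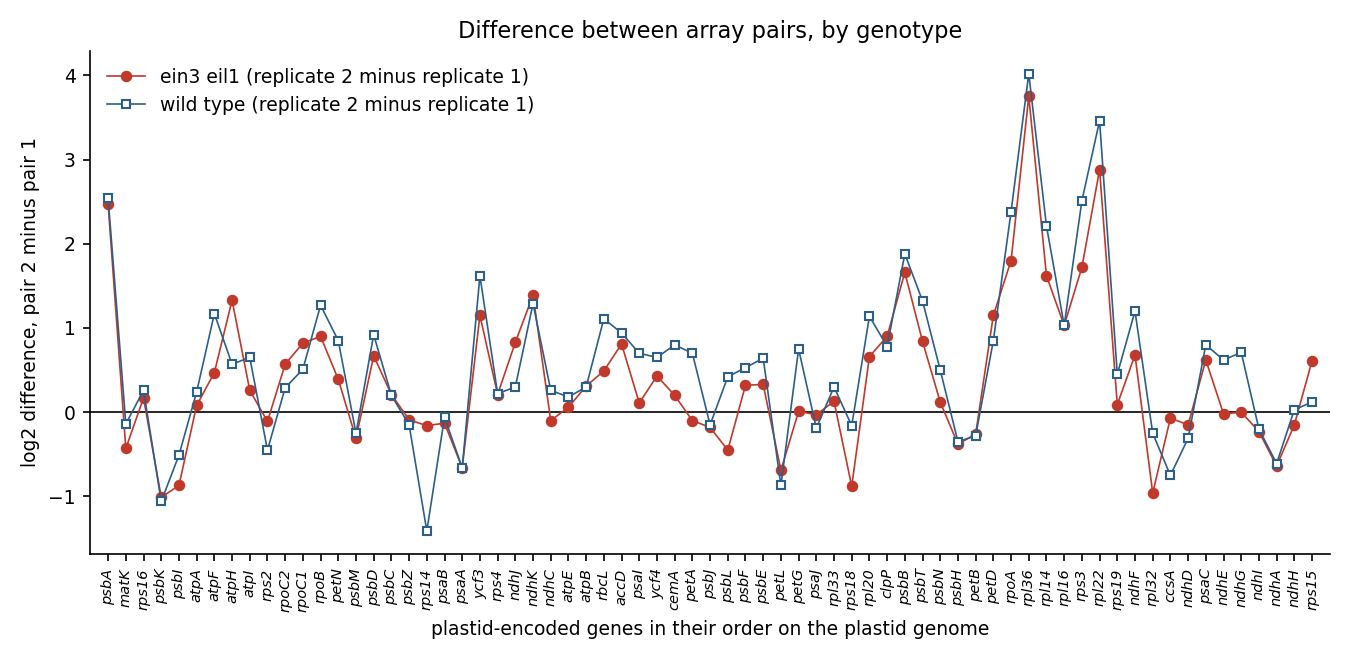
Log2 difference of pair 2 minus pair 1 for all 69 plastid-encoded genes, placed in their order on the plastid genome, with ein3 eil1 as filled circles and wild type as open squares. The curves mostly rise and fall together and peak at rpl36 (3.75 in ein3 eil1 and 4.02 in wild type), at rpl22 (2.88 and 3.46) and at psbA (2.47 and 2.54). They part at some genes, such as psbL (-0.45 and 0.42) and petA (-0.10 and 0.70).

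The contrast between the pairs was alike in the genotypes for most genes. Across the 67 genes the difference between pairs in ein3 eil1 correlated with that in wild type with Pearson's r = 0.92 and Spearman's rho = 0.87, against 0.43 and 0.43 over all tested probe sets. The genotype difference in pair 1 correlated with that in pair 2 with r = 0.17 and rho = 0.10, against 0.41 and 0.26 over all. These are descriptions across genes, which are not independent because clustered genes share RNAs and all arrays were normalised together.

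Signs of RNA composition differed between the arrays too, and their part in the contrast was not tested. The probe set for the cytosolic 25S ribosomal RNA had intensities of 3050.7 and 5272.3 in ein3 eil1 and 1117.2 and 6723.5 in wild type. After normalisation its contrast between pairs was 0.04 in ein3 eil1 and 2.64 in wild type. The 5S ribosomal RNA probe set, at intensities of at most 19.8, had contrasts of 0.42 in ein3 eil1 and 1.12 in wild type. Mitochondrially encoded genes, the other organelle, were read by 18 probe sets for 11 genes matched by symbol, and 11 of the probe sets were tested. In both genotypes 2 of these were lower in pair 2 by 2-fold or more, and 0 were higher by as much. Their median contrast was -0.56 in ein3 eil1 and -0.21 in wild type, against 0.20 and 0.50 for the plastid genes. The 11 probe sets covered 8 genes, and apart from nad4 and cox1 they lay under 7.16, the median log2 signal of all tested probe sets. The plastid genes had medians of 10.71 to 11.44, so the organelles were read at unlike signal levels. The genotype differences of the 11 had a median of 0.29, and 0 passed the limma threshold. A nad1 probe set among them (5.64 and 5.37 in ein3 eil1, 5.03 and 4.16 in wild type) was tested only through its mutant signals.

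**Figure D5:**
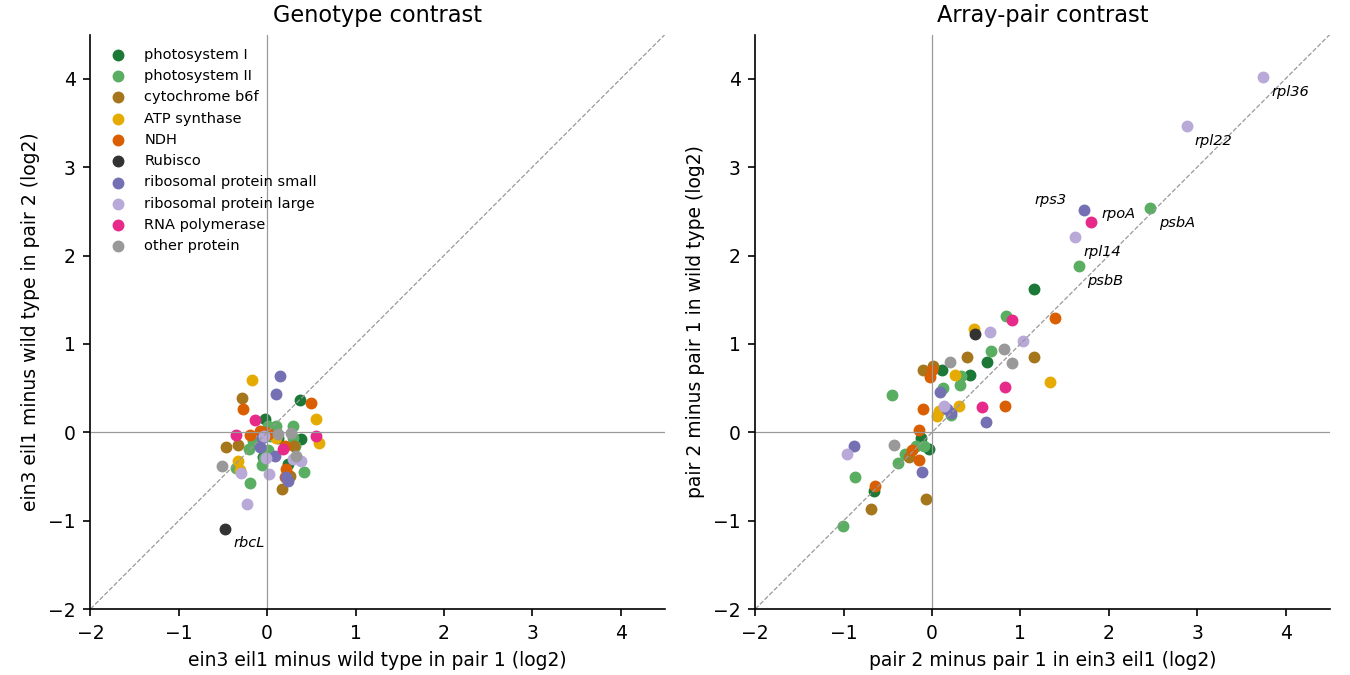
Each point is 1 of the 67 tested plastid-encoded genes. The left panel sets the genotype difference in pair 2 against that in pair 1, and the right panel sets the difference between pairs in wild type against that in ein3 eil1, on the same log2 axes; the genotype differences gather around 0 (r = 0.17) and the differences between pairs lie along the diagonal (r = 0.92).

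Nuclear genes that serve plastid gene expression could be read to a small extent. Of 54 listed genes of plastid RNA processing and assembly, 13 could be matched to a probe set and 7 of them were bright enough to test. In limma 0 of the 7 passed, where 0.292% of all tested probe sets did, and 0 passed with the array pair as a block, where 2.79% did. Without the block 2 had an unadjusted p under 0.05 (6.14% of all). All 7 had a lower mean in ein3 eil1, as did 48.9% of all tested probe sets, with a median difference of -0.34 against 0.01 over all. Among the matched genes too dim to test, CRR22 had a higher mean in ein3 eil1 (0.50) and the rest had lower ones. The median of the tested genes ran from -0.72 without ein3 eil1 replicate 2 to -0.04 without wild type replicate 2. At the deposited scale it was -0.01, where that of all tested probe sets was 0.40. CRR28, an RNA editing factor for ndhB and ndhD transcripts, had 4.70 and 5.31 in ein3 eil1 and 5.94 and 6.14 in wild type (difference -1.03, SE 0.41, limma adjusted p = 0.74). HCF101, which is no RNA factor but assembles iron-sulphur clusters for photosystem I, had 7.04 and 7.80 in ein3 eil1 and 8.16 and 8.55 in wild type (difference -0.93, SE 0.34, limma adjusted p = 0.66). With the array pair as a block the limma adjusted p was 0.21 for CRR28 and 0.052 for HCF101. In both, all mutant values lay below all wild-type values.

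OTP84, an editing factor for psbZ and ndh transcripts, had 4.88 and 4.45 in ein3 eil1 and 5.60 and 5.68 in wild type (difference -0.97, limma adjusted p = 0.87). The splicing factor CAF1 differed by -0.34 and also separated, which makes 4 of 7 lower without overlap, where 15.1% of all tested probe sets were. The editing factors CRR21 (for ndhD) and LPA66 (for psbF) differed by -0.21 and -0.15, and the splicing factor CFM3A by -0.15. Of the plastid transcripts named here as targets of the editing factors, ndhD differed by -0.11, psbZ by -0.13 and psbF by -0.10. A lower mean was also found in 61.2% of the 67 plastid genes, and the median of the NDH genes was -0.01. Targets of the splicing factors were not listed, and editing and splicing themselves were not measured. The transcript of ndhB, a gene present in 2 copies and not a member, differed by -0.55 (-0.60 in pair 1 and -0.51 in pair 2). The groups overlapped, with a limma adjusted p of 1.0. It was dim, at intensities of 16.7 and 72.6 in ein3 eil1 and 25.1 and 63.7 in wild type. The lists for plastid transcription (45 genes), the nuclear-encoded plastid ribosome (44) and protein import (25) had no match in the annotation used and were not analysed here. That annotation named no gene for 8730 of the 22810 probe sets, so the array may still carry probe sets for them.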

How the data were processed

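Each of the 4 arrays came with linear signal intensities, 1 for each of 22810 probe sets, which the authors deposited and which the submitters' processing notes tie to MAS5. Its scaling target and its detection calls are not given in the sources used here. To each intensity 3 was added, log2 was taken and the arrays were quantile normalised, so fold changes are on that scale and understate changes of dim probe sets. The 64 control probe sets were left out, as were those under the 40th percentile of their array on more than 2 arrays. Testing used limma 3.58.1 in R 4.3.3, two-sided with a mean-variance trend, and Benjamini-Hochberg adjustment over 14031 probe sets, and the code was tested on simulated data. The number of arrays limits the precision.

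Genes were named through gene identifiers in RefSeq (TAIR10.1), which 13436 of 13513 single-gene probe sets matched. Members, classes and lists were chosen with earlier results of these data known. By rule the text names in each class the gene with the highest mean level and those with the largest positive and negative difference, plus psbA, rbcL, rpoB, accD, clpP and matK, and in the nuclear list the highest and lowest difference. All others named were chosen after their values were seen. Copies of plastid DNA in other genomes could share probes. Alternatives covered pseudocounts, filters, scalings, variance models, the array pair as a block, averaged probe sets and leaving out each array. Same-numbered arrays were paired from their titles only, so the block is an alternative.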

Additional observations from a re-analysis of the deposited data

How the results depend on the processing

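With 2 arrays per genotype and replicates that differ by up to 16.2-fold, the intervals of rpl36, rpl22 and psbA were wide in the fit without the array pair. With the pair as a block the unadjusted p of rpl22 was 0.038, against 0.66 without it, and that of rpl36 was 0.53, against 0.92 (limma). The labels give the replicates no numbers, and the array pair, taken from the titles, was used as a replicate block in 1 alternative: 0 plastid genes passed with it, and 391 probe sets passed in all, against 41 without it. Of 15 alternatives, the 11 that kept all 4 arrays gave 0 plastid genes past the threshold. Leaving out 1 array gave 0 to 2, which were rpl36 and rpl22. Over all probe sets the 41 calls became 14 without a filter, 12 with the stricter filter, 95 under the deposited scaling, 72 with median centring and from 68 to 182 without 1 array. The number of genes without overlap was 8, and 16 under the deposited scaling (all higher), and from 23 to 51 without 1 array, where 1 array has fewer others to overlap with. These are 11.9% of the 67 against 31.6% of all probe sets, 23.9% against 35.8%, and from 34.3% to 76.1% against 61.9% to 70.9%.

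Under the deposited scaling every class median was higher, beside a median of 0.40 over all probe sets: photosystem I 0.43, photosystem II 0.36, cytochrome b6f 0.20, ATP synthase 0.46, NDH 0.38, rbcL -0.37, small-subunit ribosomal proteins 0.30, large-subunit ones 0.23, RNA polymerase 0.42 and the other proteins 0.44. Leaving out 1 array moved the medians most for large-subunit ribosomal proteins (-0.78 to 0.47), rbcL (-1.35 to -0.22) and RNA polymerase (-0.54 to 0.39). The ranges were -0.36 to 0.16 for photosystem I, -0.30 to 0.02 for photosystem II, -0.35 to 0.10 for cytochrome b6f, -0.22 to 0.31 for ATP synthase, -0.11 to 0.15 for NDH, -0.18 to 0.05 for small-subunit ribosomal proteins, -0.39 to 0.24 for the other proteins and -0.35 to 0.14 for all 67. The cause was not tested. The median of the nuclear list ran from -0.72 to -0.04 without 1 array and was -0.01 under the deposited scaling; with the stricter filter the list kept 1 gene, at -0.93. Of 28 named plastid genes, none of which passed, rpl22 passed without ein3 eil1 replicate 2 (-1.97). The sign changed in 10 under the deposited scaling, in 2 with median centring, and in 6 to 11 without 1 array.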

Other observations

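The plastid genes of the inverted repeat are present in 2 copies and so were left out of the members. They were read by 8 probe sets, of which 7 were tested, with a median difference of -0.11 and 0 past the limma threshold, where 0.292% of all tested probe sets passed. The genotypes overlapped in all 7, where 31.6% of all tested probe sets did not overlap. Rps7, for a small-subunit ribosomal protein, had 12.26 and 12.46 in ein3 eil1 and 12.07 and 12.63 in wild type. Ycf1, which encodes a component of the protein import machinery of the inner envelope, had 9.60 and 10.93 in ein3 eil1 and 9.77 and 11.03 in wild type, with replicate 2 above replicate 1 in both genotypes. Rpl2, of the large subunit, had 13.03 and 13.00 in ein3 eil1 and 13.03 and 13.03 in wild type, so its 4 arrays were nearly equal although its cluster also holds rpl36 and rpl22.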
